A study of Mus musculus with 6 samples.

Results

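Mitosis genes encode the proteins with which a cell enters division, packs its chromosomes, checks their attachment to the spindle and splits into daughter cells. The 47 genes described here were chosen by name from knowledge of that machinery and matched by symbol to the NCBI gene numbers of the count tables. Earlier results of these data were known when the genes were chosen. All 47 were found among the 23282 genes of the tables. They fell into 9 groups by role, from CDK1 and its cyclins to the genes of cytokinesis. The study asked what Mll4, also named Kmt2d, a histone H3 lysine 4 methyltransferase, does to the transcriptome of normal and transformed mouse blood-forming cells.

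The counts covered 9 libraries of 6 samples, all of mice of mixed 129/Sv and C57BL/6 background. There were 4 groups of bone marrow cells transformed with a retrovirus that carries MLL-AF9, a leukaemia fusion oncogene that lets marrow cells grow in culture. The Mll4 deleted group (2 libraries) and the Mll4 intact group (2) are both labelled Mll4f/f, with marrow from mice that also carry MxCre, according to the growth protocol. The deleted group received Cre in a retrovirus with a Tomato marker, the intact group the empty vector, and cells with GFP and Tomato were sorted 5 days after infection. Another transformation began from marrow labelled MLL4-/- and gave cells that took up MLL-AF9-neo together with FOXO3-IRES-GFP (2 libraries) or the empty vector (1), selected in G418 and sorted for GFP. FOXO3 is a transcription factor tied to cell cycle arrest and stress resistance. All these cultures had a growth duration of 14 days. LSK cells, the marrow fraction without lineage markers and with Sca1 and c-Kit that holds stem cells, came from mice 2 months old treated with polyIC, which switches MxCre on. In LSK cells 1 library is labelled Mll4f/f + Cre and 1 wild type, the wild type littermate also carrying MxCre, and each was made from about 50 picked cells by a protocol with added PCR cycles.

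Division is driven by the kinase CDK1 bound to a cyclin, which is switched on by CDC25 phosphatases and helped by Polo and Aurora kinases. Kinetochores tie each chromosome to spindle fibres, and unattached ones keep the spindle checkpoint on, which holds back the anaphase-promoting complex (APC/C). Once all are attached, the APC/C marks cyclin B and securin for destruction, and separase opens the cohesin rings between sister chromatids. Most of these genes are transcribed late in the cell cycle, under a repressor complex called DREAM in resting cells and an activating complex of B-MYB and FOXM1 in dividing ones. Their RNA is therefore widely used as a sign of proliferation, although in bulk samples a larger share of dividing cells and more RNA per dividing cell cannot be told apart.

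Library totals ran from 25895041 to 61950773 counts. Kmt2d, counted over the whole gene, was not lower where the labels name a deletion. With the label Mll4 deleted it had 95.6 and 73.7 CPM (counts scaled to a common library total), against 79.5 and 61.7 CPM for the intact pair. The libraries labelled MLL4-/- had the highest levels, 102 and 115 CPM with FOXO3 and 116 CPM with the empty vector. The LSK library labelled Mll4 deleted had 13.9 CPM of it, against 1.88 CPM in wild type cells. These values do not check the deletion, since no source used here names the exons lost, and every direction below rests on the labels. Foxo3 stood at 1292 and 1309 CPM in the FOXO3 libraries and at 27.3 CPM with the empty vector. The FOXO3 pair was far closer (chi-square per degree of freedom 1.97) than the Mll4 deleted pair (190.7) or the intact pair (146.0). Counts of calls for the mitosis genes and the lists of other cell cycle genes are therefore also given with the FOXO3 pair summed into 1 library. Those for cell type markers and for genes grouped by promoter motif come from the unsummed fit only. Xist and the Y-linked Ddx3y showed that each Mll4 pair held 1 female and 1 male library, while the FOXO3 and empty-vector libraries were male. The labels do not name separate cultures or animals for the libraries of a pair, and p-values measure the spread between libraries only.

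In MLL-AF9 cells, mitosis genes of all 9 role groups were higher in the Mll4 deleted libraries than in the intact ones. Of 47 tested, 38 were higher at an adjusted p under 0.05 (edgeR's quasi-likelihood test, Benjamini-Hochberg over 14997 genes), 0 were lower and 9 did not pass. Across all genes tested, 7.97% were called higher and 6.94% lower, 14.9% in all. All 47 estimates were above 0, with a median log2 fold change of 1.05 (2.07-fold), against −0.03 over all genes. The quartiles were 0.78 and 1.29 for the mitosis genes and −0.43 and 0.35 for all genes. At least 2-fold higher were 27 of the 47 (57.4%) and 7.40% of all genes. Among the 38 called, log2 fold changes ran from 0.70 to 1.46 and adjusted p from 0.0073 to 0.0474.

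With the FOXO3 pair summed, 14 of the 47 remained called, all higher, where 2.08% of all genes were called (1.23% higher, 0.854% lower). Those 14 were Cdk1, Ccnb2, Aurkb, Plk1, Bub1, Ttk, Cdc20, Espl1, Kif15, Nuf2, Birc5, Ncapd2, Ncapg and Top2a, at adjusted p of 0.0484 to 0.0493, and a further 21 lay between 0.05 and 0.1. Fitted on the 4 libraries compared alone, 0 passed in either direction by edgeR, with 43 below an unadjusted p of 0.05. That fit called 0 of all 14146 genes it tested, with 3498 below an unadjusted p of 0.05. On all 7 libraries DESeq2 called 43 of the 47, and 3695 of all 14997 genes.

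The library values behind these calls separated the groups. Both Mll4 deleted libraries lay above both intact ones in CPM for 46 of the 47 genes, Cdc25b being the exception, while 43.4% of all genes tested had that order. The summed CPM of the 47 was 4190 and 5129 in the Mll4 deleted libraries and 2022 and 1893 in the intact ones. CPM gaps were wider than the fitted folds (median 2.53-fold against 2.07-fold). The fit scales libraries by TMM, and the share of counts held by the top 10 genes was 13.4% and 17.4% in the intact libraries and 6.55% and 7.62% in the deleted ones. The second Mll4 deleted library, from male cells, was above the first for 43 of the 47 genes, by a median of 1.25-fold.

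**Figure D1:**
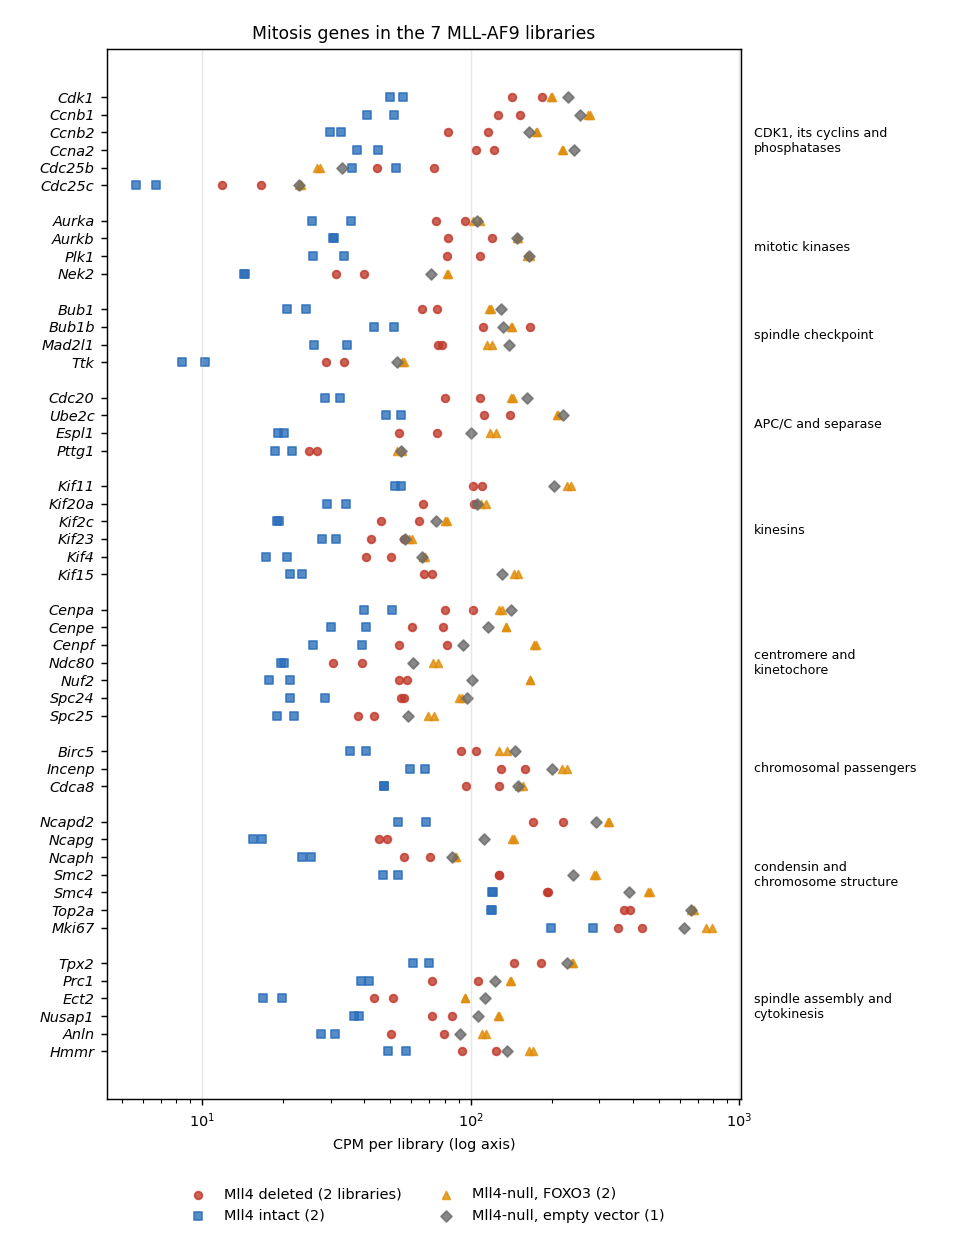
CPM (log axis) of each of the 47 mitosis genes in the 7 MLL-AF9 libraries, grouped by role, 1 point per library. The blue squares of the 2 intact libraries lie left of the red circles of the 2 Mll4 deleted libraries in 46 rows, and the FOXO3 and empty-vector points lie close together and to the right in most rows.

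Of CDK1, its cyclins and its phosphatases, 5 of 6 genes rose, with a median log2 fold change of 1.24. Ccnb1 (NCBI gene 268697), which encodes cyclin B1, the partner of CDK1 at entry into mitosis, was counted at 127 and 153 CPM in the Mll4 deleted libraries, 41.0 and 51.5 CPM in the intact libraries, 278 and 273 CPM in the FOXO3 pair and 255 CPM in the empty-vector library. The deleted libraries lay clear of the intact ones, and the fitted log2 fold change was 1.30 ± 0.19 (SE, adjusted p = 0.0166). Ccnb2 (NCBI gene 12442), the cyclin B2 gene, showed the largest change of the group, with 82.3 and 116 CPM in the Mll4 deleted libraries, 32.7 and 29.7 CPM in the intact libraries, 175 and 177 CPM in the FOXO3 pair and 165 CPM in the empty-vector library. Its groups also did not overlap, and its log2 fold change was 1.39 ± 0.18 (SE, adjusted p = 0.0122). Cdk1 itself rose by 1.34 ± 0.18 (SE, adjusted p = 0.0129) on that scale, cyclin A2 (Ccna2) by 1.17 ± 0.17 (SE, adjusted p = 0.0161) and the phosphatase gene Cdc25c by 0.92 ± 0.20 (SE, adjusted p = 0.0364). Cdc25b (NCBI gene 12531), a phosphatase that starts CDK1 activation, behaved otherwise, at 44.7 and 72.8 CPM in the Mll4 deleted libraries, 36.0 and 52.4 CPM in the intact libraries, 27.5 and 26.7 CPM in the FOXO3 pair and 33.0 CPM in the empty-vector library. Here the lower deleted library lay between the intact ones, and the estimate of 0.11 ± 0.31 (SE, adjusted p = 0.829) did not pass, with a 95% interval of −0.65 to 0.88.

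All 4 mitotic kinase genes rose, with a median of 1.30. Plk1 (NCBI gene 18817), the Polo kinase that acts from mitotic entry to cytokinesis, stood at 81.5 and 108 CPM in the Mll4 deleted libraries, 33.6 and 25.9 CPM in the intact libraries, 162 and 166 CPM in the FOXO3 pair and 164 CPM in the empty-vector library. The 2 groups were well apart, at a log2 fold change of 1.40 ± 0.17 (SE, adjusted p = 0.0112). Aurkb (NCBI gene 20877), the kinase of the chromosomal passenger complex, had counts of 82.1 and 119.7 CPM in the Mll4 deleted libraries, 30.7 and 31.0 CPM in the intact libraries, 149 and 148 CPM in the FOXO3 pair and 149 CPM in the empty-vector library. Its intact libraries were almost level and the deleted ones lay above them, by 1.43 ± 0.20 (SE, adjusted p = 0.0141), the highest estimate among the kinases. Nek2 (NCBI gene 18005), which loosens the link between centrosomes, measured 31.4 and 39.95 CPM in the Mll4 deleted libraries, 14.3 and 14.4 CPM in the intact libraries, 81.8 and 81.7 CPM in the FOXO3 pair and 71.0 CPM in the empty-vector library. It had the smallest estimate of the 4, 1.03 ± 0.15 (SE, adjusted p = 0.0160). Aurka, the centrosomal Aurora kinase, rose by 1.20 ± 0.17 (SE, adjusted p = 0.0159).

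The 4 spindle checkpoint genes all rose too, with the highest median of the 9 groups at 1.31. Ttk (NCBI gene 22137), the MPS1 kinase that starts checkpoint signalling, had the largest change of all 47 genes. It stood at 28.8 and 33.6 CPM in the Mll4 deleted libraries, 8.40 and 10.2 CPM in the intact libraries, 55.2 and 56.5 CPM in the FOXO3 pair and 52.9 CPM in the empty-vector library. Both deleted libraries were far above both intact ones, at 1.46 ± 0.18 (SE, adjusted p = 0.0112). Bub1b (NCBI gene 12236), the gene for the APC/C inhibitor BUBR1, gave 111 and 165 CPM in the Mll4 deleted libraries, 51.7 and 43.7 CPM in the intact libraries, 141 and 143 CPM in the FOXO3 pair and 132 CPM in the empty-vector library. It was higher in both deleted libraries, by 1.26 ± 0.20 (SE, adjusted p = 0.0183), and in 1 of them it also exceeded the FOXO3 and empty-vector libraries. Mad2l1 (NCBI gene 56150), whose product MAD2 blocks CDC20, measured 75.2 and 78.1 CPM in the Mll4 deleted libraries, 26.1 and 34.5 CPM in the intact libraries, 114 and 119 CPM in the FOXO3 pair and 139 CPM in the empty-vector library. That gave the smallest estimate of the group, 1.05 ± 0.19 (SE, adjusted p = 0.0253). Bub1, a scaffold kinase of the kinetochore, rose by 1.36 ± 0.16 (SE, adjusted p = 0.0112).

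Of the 4 genes of the APC/C arm, 3 rose. Espl1 (NCBI gene 105988) encodes separase, the protease that cuts cohesin at anaphase, and stood at 54.0 and 74.5 CPM in the Mll4 deleted libraries, 20.1 and 19.0 CPM in the intact libraries, 117 and 124 CPM in the FOXO3 pair and 99.9 CPM in the empty-vector library. The groups did not overlap, with a log2 fold change of 1.44 ± 0.17 (SE, adjusted p = 0.0112). Pttg1 (NCBI gene 30939) encodes securin, the inhibitor of separase, and stood at 24.8 and 26.8 CPM in the Mll4 deleted libraries, 18.6 and 21.5 CPM in the intact libraries, 55.4 and 53.0 CPM in the FOXO3 pair and 54.7 CPM in the empty-vector library. Its deleted and intact libraries were separated by little, and its estimate of 0.08 ± 0.15 (SE, adjusted p = 0.759) was the smallest of the 47, with a 95% interval of −0.29 to 0.44. The genes of separase and of its inhibitor thus had estimates far apart, and the difference between them was not tested. Ube2c (NCBI gene 68612), the ubiquitin-conjugating enzyme of the APC/C, gave 112 and 139 CPM in the Mll4 deleted libraries, 54.7 and 48.3 CPM in the intact libraries, 211 and 209.7 CPM in the FOXO3 pair and 221 CPM in the empty-vector library. It rose by 1.01 ± 0.13 (SE, adjusted p = 0.0130), and Cdc20, the activator of the APC/C at metaphase, by 1.35 ± 0.16 (SE, adjusted p = 0.0112).

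Among the kinesin genes, 5 of 6 rose, with a median of 1.07. Kif15 (NCBI gene 209737), a motor that helps hold the spindle poles apart, had the smallest adjusted p of the 47 genes, with 66.9 and 71.7 CPM in the Mll4 deleted libraries, 23.4 and 21.3 CPM in the intact libraries, 145 and 149.9 CPM in the FOXO3 pair and 130.1 CPM in the empty-vector library. The libraries of each group lay close together, and the log2 fold change was 1.36 ± 0.10 (SE, adjusted p = 0.00730). Kif11 (NCBI gene 16551), the Eg5 motor that builds the bipolar spindle, was counted at 102 and 110.4 CPM in the Mll4 deleted libraries, 54.8 and 52.3 CPM in the intact libraries, 229 and 236 CPM in the FOXO3 pair and 204 CPM in the empty-vector library. It changed less, by 0.70 ± 0.10 (SE, adjusted p = 0.0165), with a 95% interval below a 2-fold change. With the FOXO3 pair summed, the interval of Kif11 was 0.40 to 1.15, which takes in a 2-fold change. Kif23 (NCBI gene 71819), a motor of the central spindle, gave 42.5 and 56.3 CPM in the Mll4 deleted libraries, 31.5 and 27.8 CPM in the intact libraries, 60.5 and 59.0 CPM in the FOXO3 pair and 57.0 CPM in the empty-vector library. The groups did not overlap in CPM, but the estimate of 0.46 ± 0.15 (SE, adjusted p = 0.0999) did not pass. Kif2c, Kif20a and Kif4 rose by 1.25, 1.14 and 0.99.

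The centromere and kinetochore genes had the lowest median, 0.73, and 5 of 7 rose. Cenpa (NCBI gene 12615), the histone H3 variant that marks centromeres, stood at 80.0 and 102 CPM in the Mll4 deleted libraries, 50.7 and 39.97 CPM in the intact libraries, 130.0 and 128 CPM in the FOXO3 pair and 142 CPM in the empty-vector library. The rise in the deleted libraries was 0.73 ± 0.15 (SE, adjusted p = 0.0319). Nuf2 (NCBI gene 66977), an arm of the NDC80 complex that grips microtubules, was counted at 53.8 and 57.6 CPM in the Mll4 deleted libraries, 17.6 and 21.3 CPM in the intact libraries, 166 and 166 CPM in the FOXO3 pair and 101 CPM in the empty-vector library. It changed most in this group, by 1.23 ± 0.16 (SE, adjusted p = 0.0126). Ndc80 (NCBI gene 67052), its direct partner in that complex, gave 30.6 and 39.4 CPM in the Mll4 deleted libraries, 19.7 and 20.2 CPM in the intact libraries, 75.5 and 72.1 CPM in the FOXO3 pair and 60.6 CPM in the empty-vector library. The same order of groups held, but with an estimate of 0.53 ± 0.16 (SE, adjusted p = 0.0756) that did not pass. The other subunits of the complex, Spc24 and Spc25, rose by 0.89 ± 0.12 (SE, adjusted p = 0.0141) and 0.71 ± 0.16 (SE, adjusted p = 0.0387). Cenpe, a kinetochore motor, rose by 0.70 ± 0.17 (SE, adjusted p = 0.0458), and Cenpf had 0.79 ± 0.24 (SE, adjusted p = 0.0801), which did not pass.

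All 3 genes of chromosomal passengers, the proteins that carry Aurora B to centromeres and then to the midzone, rose. Birc5 (NCBI gene 11799), the survivin gene, was counted at 91.8 and 105 CPM in the Mll4 deleted libraries, 40.7 and 35.5 CPM in the intact libraries, 136 and 127 CPM in the FOXO3 pair and 146 CPM in the empty-vector library. Its groups were tight and apart, at 1.09 ± 0.11 (SE, adjusted p = 0.00900). Incenp (NCBI gene 16319), the scaffold of the complex, gave 129 and 159 CPM in the Mll4 deleted libraries, 67.3 and 59.5 CPM in the intact libraries, 228 and 218 CPM in the FOXO3 pair and 200.3 CPM in the empty-vector library. It rose by 0.91 ± 0.13 (SE, adjusted p = 0.0159), and Cdca8, the borealin gene, by 0.95 ± 0.16 (SE, adjusted p = 0.0207).

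Of 7 genes of condensin and chromosome structure, 5 rose, with a median of 1.09. Ncapd2 (NCBI gene 68298), a condensin I subunit, was counted at 169.8 and 219 CPM in the Mll4 deleted libraries, 68.0 and 53.6 CPM in the intact libraries, 326 and 324 CPM in the FOXO3 pair and 293 CPM in the empty-vector library. It led the group at 1.41 ± 0.16 (SE, adjusted p = 0.0107), with the deleted libraries well above the intact ones. Smc4 (NCBI gene 70099), 1 of the paired ATPase arms of condensin, gave 193 and 192 CPM in the Mll4 deleted libraries, 119 and 121 CPM in the intact libraries, 458 and 463 CPM in the FOXO3 pair and 388 CPM in the empty-vector library. Values within each group nearly coincided and the groups were apart, yet the estimate of 0.40 ± 0.11 (SE, adjusted p = 0.0653) did not pass. Smc2, which encodes the other arm, rose by 1.05 ± 0.14 (SE, adjusted p = 0.0136), and the condensin I genes Ncapg and Ncaph by 1.27 and 1.09. Mki67 (NCBI gene 17345), the gene of the proliferation antigen Ki-67 that coats mitotic chromosomes, stood at 354 and 433 CPM in the Mll4 deleted libraries, 285 and 198 CPM in the intact libraries, 754 and 792 CPM in the FOXO3 pair and 623 CPM in the empty-vector library. Its intact libraries differed from each other more than its deleted ones, and 0.44 ± 0.18 (SE, adjusted p = 0.147) did not pass. Top2a, the topoisomerase that untangles sister chromatids, rose by 1.39 ± 0.11 (SE, adjusted p = 0.00739).

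In the group of spindle assembly and cytokinesis, 4 of 6 rose, with a median of 0.86. Tpx2 (NCBI gene 72119), which activates Aurora A on the spindle, was counted at 145 and 182 CPM in the Mll4 deleted libraries, 69.5 and 61.0 CPM in the intact libraries, 239 and 239 CPM in the FOXO3 pair and 229 CPM in the empty-vector library. The deleted libraries were higher by 1.05 ± 0.14 (SE, adjusted p = 0.0129). Ect2 (NCBI gene 13605), the exchange factor that sets the cleavage furrow, gave 51.1 and 43.4 CPM in the Mll4 deleted libraries, 16.7 and 19.8 CPM in the intact libraries, 94.7 and 94.8 CPM in the FOXO3 pair and 113 CPM in the empty-vector library. It changed most here, by 1.08 ± 0.17 (SE, adjusted p = 0.0173). Hmmr (NCBI gene 15366), a spindle pole protein, was counted at 92.2 and 124 CPM in the Mll4 deleted libraries, 48.9 and 57.3 CPM in the intact libraries, 165 and 171 CPM in the FOXO3 pair and 136 CPM in the empty-vector library. The groups were apart, and 0.74 ± 0.20 (SE, adjusted p = 0.0588) fell short of the threshold. Prc1, which bundles the midzone, and Nusap1 rose by 0.86 and 0.78, while Anln, the anillin of the contractile ring, had 0.86 ± 0.24 (SE, adjusted p = 0.0668), which did not pass. The calls, SE and adjusted p given for the 9 groups come from the fit of 7 libraries. With the FOXO3 pair summed, 2 genes stayed called in each of the CDK1, mitotic kinase, spindle checkpoint and APC/C groups. In that fit 1 stayed called in each of the kinesin, centromere and kinetochore, and chromosomal passenger groups. Condensin and chromosome structure kept 3, and spindle assembly and cytokinesis 0. Differences between the 9 groups of genes were not tested.

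**Figure D2:**
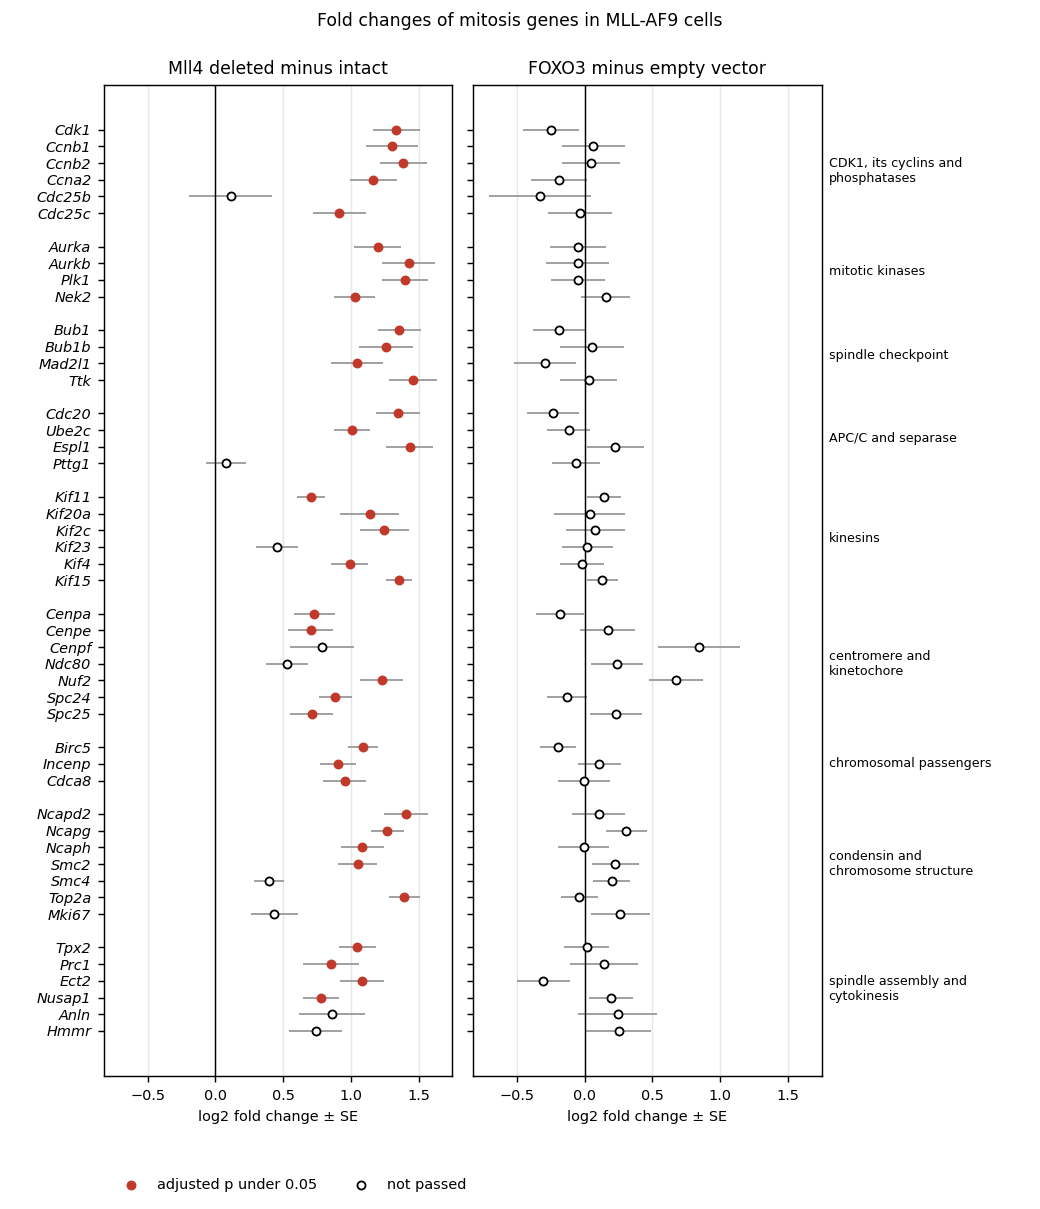
Fitted log2 fold change ± SE of each mitosis gene for Mll4 loss (left, 2 against 2 libraries) and for FOXO3 (right, 2 against 1), from 1 edgeR fit of 7 libraries. Filled points passed an adjusted p under 0.05: 38 on the left, all above 0, and 0 on the right, where most points lie near 0.

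Of the 38, 9 kept their call whichever single MLL-AF9 library was left out: Plk1, Bub1, Ttk, Kif15, Nuf2, Birc5, Ncapd2, Ncapg and Top2a. Without the first intact library 15 were called and without the second 21, while leaving out either FOXO3 library gave 14. Calls over all genes were also fewer in these fits than in the fit of all 7 libraries. The share of all genes that kept a call whichever library was left out was not worked out. The 9 therefore show nothing particular to the mitosis genes. Each fit that left out a library still had every called mitosis gene higher in the deleted cells.

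**Figure D3:**
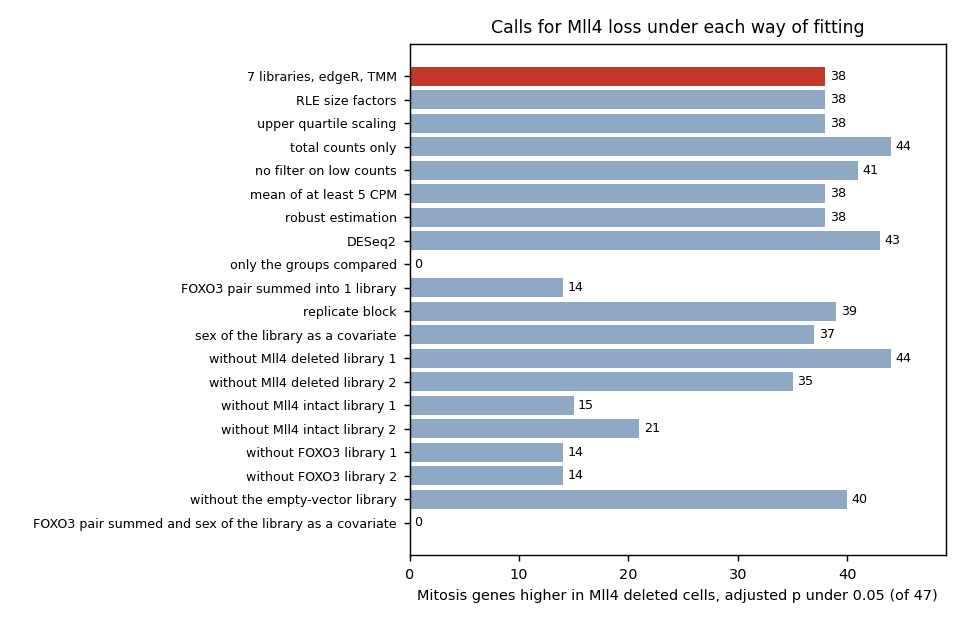
Number of the 47 mitosis genes called higher for Mll4 loss (adjusted p under 0.05) under each way of fitting. The red bar is the fit of 7 libraries. Fits whose bar stands at 0 called none of all the genes tested either. The bars stand at 35 to 44 for most settings, at 14 to 21 where a FOXO3 or intact library is left out or the FOXO3 pair is summed, and at 0 where only the 4 libraries compared are fitted or where the summed pair is joined with library sex.

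Other cell cycle genes moved with the mitosis genes. Of 112 further genes of division in 9 lists, 66 rose, 0 fell and 46 did not pass, with a median of 0.70 (10 called with the FOXO3 pair summed). Of 26 other kinetochore and centromere genes 16 rose, among them Cenph by 1.76 ± 0.26 (SE, adjusted p = 0.0161), Knl1, which recruits BUB proteins, by 1.13 ± 0.11 (SE, adjusted p = 0.00835) and Cenpt by 1.03 ± 0.13 (SE, adjusted p = 0.0118). Of 21 other kinesin and spindle genes 17 rose, and the 3 of smallest p were Tacc3 at 1.31 ± 0.11 (SE, adjusted p = 0.00766), Kif20b at 1.12 ± 0.10 (SE, adjusted p = 0.00792) and Kif22 at 1.52 ± 0.15 (SE, adjusted p = 0.00820). Of 10 controls of mitotic entry, 6 rose, including Cks1b, a CDK-binding protein, at 1.23 ± 0.11 (SE, adjusted p = 0.00792), Cdc25a at 1.18 ± 0.14 (SE, adjusted p = 0.0109) and Cks2 at 0.81 ± 0.10 (SE, adjusted p = 0.0116). All 3 condensin II subunit genes rose, Ncaph2 by 0.81, Ncapg2 by 0.76 and Ncapd3 by 0.69. With the FOXO3 pair summed, none of these 3 was called by edgeR (adjusted p of 0.0579 to 0.0897), and 1 of the kinetochore, 4 of the spindle and 2 of the entry genes were.

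The remaining lists changed in part. Of 7 other checkpoint genes 4 rose, including Trip13, the ATPase that takes apart the checkpoint complex, at 1.33 ± 0.13 (SE, adjusted p = 0.00835), Zwilch at 1.14 ± 0.18 (SE, adjusted p = 0.0179) and Mad1l1 at 0.52 ± 0.11 (SE, adjusted p = 0.0385). Of 13 cohesin genes 7 rose, with Smc3 at 0.98 ± 0.09 (SE, adjusted p = 0.00792), Esco2 at 0.88 ± 0.11 (SE, adjusted p = 0.0129) and Cdca5, the sororin gene, at 0.99 ± 0.15 (SE, adjusted p = 0.0173). Of 15 APC/C subunits and regulators 5 rose, with a median of 0.36, and the 3 of smallest p were Cdc23 (0.59), Anapc5 (0.65) and Cdc16 (0.54). Of 6 centriole duplication genes 4 rose, with Plk4, the kinase that starts duplication, at 0.79 ± 0.10 (SE, adjusted p = 0.0116), Cep192 at 0.59 and Sass6 at 0.80. Among 11 transcription factors of late cell cycle genes, 4 rose. Mybl2, which encodes B-MYB, changed by 1.37 ± 0.11 (SE, adjusted p = 0.00730), E2f4, a DREAM subunit, by 0.55 ± 0.09 (SE, adjusted p = 0.0186), Tfdp1 by 0.77 ± 0.13 (SE, adjusted p = 0.0219) and Foxm1 by 0.95 ± 0.18 (SE, adjusted p = 0.0280). With the FOXO3 pair summed, the calls came to 1 checkpoint gene, 1 cohesin gene, 1 transcription factor and 0 of the APC/C and centriole genes, where edgeR's lowest adjusted p was 0.0773 and 0.0560. Genes of DNA replication, taken as a comparator of another cell cycle phase, rose in 20 of 21 cases with a median of 1.31 (11 with the pair summed). Mcm3 rose by 1.57, Mcm4 by 1.39 and Rrm2 by 1.66.

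Markers of cell type and maturation stage differed in part between the deleted and intact libraries, and only the primary granule genes rose as a whole list. All 5 primary granule genes, which mark early neutrophil precursors, rose, and their summed CPM was 10200 and 13610 in the deleted libraries against 1711 and 2446 in the intact ones. Of 10 macrophage and dendritic markers 2 fell and 0 rose, with sums of 1714 and 2804 against 3714 and 4333 and no marker at 0. C1qa and C1qb, not called, had higher CPM in both deleted libraries, with C1qb at 9.46 and 19.8 against 4.62 and 2.61. Of 7 megakaryocyte markers 4 fell and 0 rose, with overlapping sums of 425.5 and 598 against 751 and 550.5. Of 7 erythroid markers tested 3 fell and 0 rose, with overlapping sums of 28.9 and 4.73 against 32.2 and 12.5, and Hba-a1 was at 0 in all 4 libraries. Late neutrophil markers (8 measured) summed to 10550 and 12340 against 10910 and 4405, with 1 higher and 2 lower. Mast cell and basophil markers varied within groups, at 10540 and 705 against 4694 and 1841, with 0 of 4 called. These marker calls were not worked out with the FOXO3 pair summed. The part of the marker differences in the levels of mitosis genes was not tested.

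The promoters of the mitosis genes were examined because the genes moved together and because late cell cycle genes are known for a shared promoter layout. In it, a short element called the CHR, bound by DREAM and by the complex of B-MYB and FOXM1, lies next to the start, with CCAAT boxes, bound by NF-Y, upstream. RefSeq promoter windows (GRCm38.p6), each of 300 bases from 250 before to 50 after the start, were given for 39 of the 47 genes. The sequences below run from 170 bases before to 30 bases after the start, in the direction of the gene, with capitals for the CHR (TTTGAA, or TTCAAA on the other strand) and the CCAAT box (CCAAT, or ATTGG on the other strand). The first 6 carry both motifs, and Birc5 and Pttg1 carry neither. Ccnb2, at chr9:70421525-70421724 (minus strand), has CCAAT boxes at a regular spacing before a CHR at the start. Cdk1 lies at chr10:69352883-69353082 (minus strand), Cdc20 at chr4:118437314-118437513 (minus strand), Ube2c at chr2:164769759-164769958 (plus strand), Top2a at chr11:99024160-99024359 (minus strand) and Ttk at chr9:83834519-83834718 (plus strand). Birc5 lies at chr11:117849067-117849266 (plus strand) and Pttg1 at chr11:43425952-43426151 (minus strand).
Ccnb2: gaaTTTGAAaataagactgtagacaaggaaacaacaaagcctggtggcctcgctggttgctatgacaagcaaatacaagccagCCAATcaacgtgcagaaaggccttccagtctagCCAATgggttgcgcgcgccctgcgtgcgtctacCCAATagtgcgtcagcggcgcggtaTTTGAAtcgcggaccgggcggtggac
Cdk1: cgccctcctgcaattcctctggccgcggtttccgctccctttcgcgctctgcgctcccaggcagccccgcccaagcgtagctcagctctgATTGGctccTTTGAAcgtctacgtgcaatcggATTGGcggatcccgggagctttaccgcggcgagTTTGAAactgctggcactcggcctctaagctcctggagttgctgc
Cdc20: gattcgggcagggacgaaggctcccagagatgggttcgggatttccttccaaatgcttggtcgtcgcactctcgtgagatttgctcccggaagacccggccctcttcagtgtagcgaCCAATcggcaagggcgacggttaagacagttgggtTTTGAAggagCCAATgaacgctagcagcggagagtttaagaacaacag
Ube2c: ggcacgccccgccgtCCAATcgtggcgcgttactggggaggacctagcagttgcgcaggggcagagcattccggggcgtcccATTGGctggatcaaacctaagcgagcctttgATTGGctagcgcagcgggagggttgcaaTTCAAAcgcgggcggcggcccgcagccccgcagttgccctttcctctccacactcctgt
Top2a: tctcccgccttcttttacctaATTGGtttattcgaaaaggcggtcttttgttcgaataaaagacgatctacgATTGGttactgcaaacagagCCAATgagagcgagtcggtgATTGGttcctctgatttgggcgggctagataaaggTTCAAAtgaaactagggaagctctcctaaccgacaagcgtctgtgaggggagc
Ttk: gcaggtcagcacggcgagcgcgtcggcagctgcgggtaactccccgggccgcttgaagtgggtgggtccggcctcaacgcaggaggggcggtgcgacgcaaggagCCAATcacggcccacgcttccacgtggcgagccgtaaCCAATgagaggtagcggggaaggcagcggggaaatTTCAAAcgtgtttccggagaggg
Birc5: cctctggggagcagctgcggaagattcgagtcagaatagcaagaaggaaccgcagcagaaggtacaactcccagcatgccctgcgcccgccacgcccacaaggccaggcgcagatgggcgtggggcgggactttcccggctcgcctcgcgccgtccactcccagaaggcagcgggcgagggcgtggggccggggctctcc
Pttg1: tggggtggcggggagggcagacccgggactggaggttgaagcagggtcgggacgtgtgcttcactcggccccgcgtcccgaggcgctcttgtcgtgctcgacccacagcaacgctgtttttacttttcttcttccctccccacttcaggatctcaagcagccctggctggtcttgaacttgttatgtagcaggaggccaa

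A CHR was found, on either strand, in a window of 28 of the 39 genes (71.8%), against 15.1% of the 11800 tested genes with a window and 17.9% of all 32851 windows. A CCAAT box was found in 74.4% against 42.7% of tested genes, and both motifs in 61.5% against 6.25%. A CHR with at least 2 CCAAT boxes occurred in 16 genes (41.0%) against 2.44%. Of 39 CHR matches in the windows of mitosis genes, 27 lay within 40 bases either side of the start. Variants of the CHR (TTCGAA or CTTGAA or TTTAAA) were found in 43.6% against 23.2%. The other motifs were in few windows: E2F words (TTTCCCGC, TTTGGCGC, TTTCGCGC or TTTGCCGC) were in 10.3% against 4.37%, forkhead words (GTAAACA or ATAAACA), the kind FOXO3 and FOXM1 bind, in 7.69% against 6.19%, and the E-box CACGTG in 7.69% against 11%. All were searched on both strands, and none of the words spelled here is part of another. Median GC content was 59.0% in the windows of mitosis genes and 52.7% in all windows. A match describes letters in the window only.

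The median log2 fold change for Mll4 loss was 1.07 in the 28 genes with a CHR in a window and 1.05 in the other genes with a window, and the difference was not tested. Of the 39, 6 held neither a CHR nor a CCAAT box: Birc5, Mad2l1, Ncaph, Nuf2, Nusap1 and Pttg1. The first 5 of them rose, by 1.09, 1.05, 1.09, 1.23 and 0.78, while Pttg1 had the smallest estimate of all 47.

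**Figure D4:**
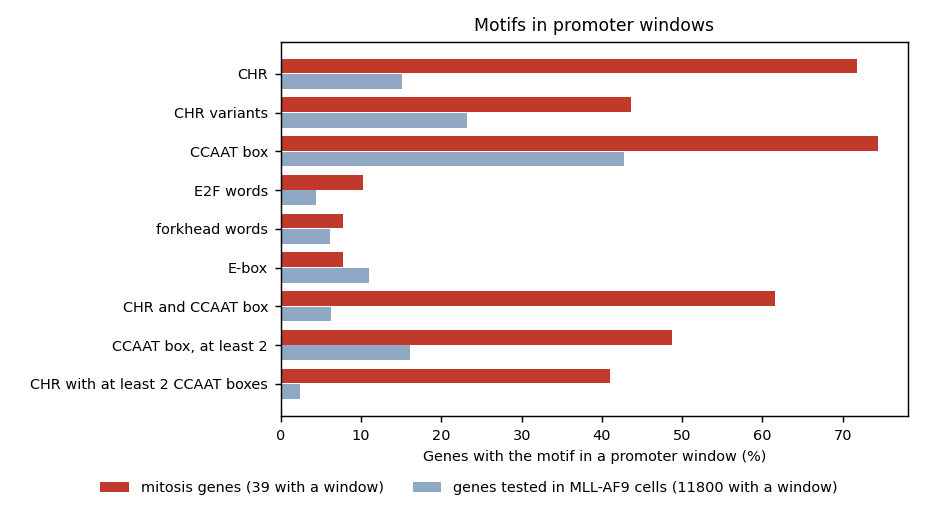
Share (%) of genes with each motif in a promoter window of 300 bases, for the 39 mitosis genes with a window (red) and the 11800 genes tested in MLL-AF9 cells with a window (blue). The red bars stand far above the blue ones for the CHR (71.8% against 15.1%) and its combination with CCAAT boxes, and near them for forkhead words and the E-box.

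FOXO3 in cells labelled MLL4-/- was compared with the empty vector to see what the factor does in transformed cells that carry this label. No mitosis gene passed in this comparison (0 of 47 higher or lower by edgeR), while 7.13% of all genes were called (2.2% higher and 4.93% lower). At an unadjusted p under 0.05 there were 2, Nuf2 and Cenpf, and the lowest adjusted p was 0.109. DESeq2 called 1, Nuf2. The median log2 fold change was 0.04, against −0.04 over all genes, and 45 of the 47 estimates lay within 0.35 of 0. For 44 genes the 95% interval left out a 2-fold change in either direction (39 with the FOXO3 pair summed, again with 0 called, where 1.19% of all genes were called, 0.213% higher and 0.974% lower).

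Summed over the 47 genes, CPM reached 8015 and 8092 in the FOXO3 pair and 7429 in the empty-vector library. Both FOXO3 libraries lay above the empty-vector library for 31 genes and below it for 11, where 45.3% of all genes lay above and 45.3% below. Nuf2 (NCBI gene 66977) stood at 166 CPM in each FOXO3 library and at 101 CPM with the empty vector, an estimate of 0.67 ± 0.20 (SE, adjusted p = 0.109). Cenpf (NCBI gene 108000), a large kinetochore protein, gave 53.8 and 81.2 CPM in the Mll4 deleted libraries, 39.1 and 25.9 CPM in the intact libraries, 171 and 175 CPM in the FOXO3 pair and 93.3 CPM in the empty-vector library. Its estimate was the largest of the 47, 0.85 ± 0.30 (SE, adjusted p = 0.170), with a 95% interval of 0.10 to 1.59. With the FOXO3 pair summed, the interval of Cenpf was −0.08 to 1.86. Both are thus genes with higher FOXO3 values that did not pass, chosen here after their values were seen. The lowest estimates were those of Cdc25b at −0.33 ± 0.37 (SE, adjusted p = 0.670), Ect2 at −0.31 ± 0.20 (SE, adjusted p = 0.428) and Mad2l1 at −0.29 ± 0.23 (SE, adjusted p = 0.518). For Ccnb1 and Plk1, described as FOXO targets in other cells, the 95% intervals of the log2 fold change were −0.51 to 0.64 and −0.55 to 0.45. With the FOXO3 pair summed they were −0.69 to 0.90 and −0.72 to 0.71.

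The empty-vector group held 1 library, assumed to vary like the other groups. Fitted on the FOXO3 and empty-vector libraries alone, where the spread is that of the near-identical FOXO3 pair, 35 of the 47 were called, 24 higher and 11 lower, as were 9710 of 13880 genes. In the 112 other genes of division, 1 rose and 3 fell. Nsl1, a kinetochore subunit gene, rose by 0.71 ± 0.12 (SE, adjusted p = 0.0310). Those lower were Bora, an activator of PLK1, at −0.95 ± 0.12 (SE, adjusted p = 0.0133), Ube2s, an APC/C ubiquitin enzyme, at −0.85 ± 0.14 (SE, adjusted p = 0.0231), and E2f4 at −0.57 ± 0.10 (SE, adjusted p = 0.0340). With the pair summed, edgeR gave these 4 genes adjusted p of 0.156 to 0.324. Cell type markers differed more: 5 of 10 macrophage markers fell, with sums of 38.5 and 39.9 CPM against 132, and 6 of 7 erythroid markers fell, at 3.16 and 2.96 against 89.1. The FOXO3 libraries had C1qa and C1qb at 0. Mast cell and basophil markers summed to 239.5 and 241 against 2222 (2 of 4 lower). Marker calls for FOXO3 were likewise not worked out with the pair summed. The part of cells with these markers in the values of mitosis genes was not tested.

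Cells labelled MLL4-/- at transformation carried the highest levels of mitosis genes. In CPM, the FOXO3 and empty-vector libraries were all above both Mll4 deleted libraries for 45 of the 47 genes (36.1% of all genes tested), Cdc25b and Bub1b being the exceptions. The intact libraries were the lowest 2 of 7 for 46 genes (34.2% of all genes). The ratio of the empty-vector library to the Mll4 deleted mean had a median of 1.58 and ran from 0.561 for Cdc25b to 2.40. The 2 sets of cells differ in transformation, vectors and selection, so deletion and protocol cannot be told apart, and no test was made.

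In LSK cells the mitosis genes did not move one way. Of the 44 genes that reached 1 CPM on average, 15 were at least 2-fold higher in the library labelled Mll4 deleted, 12 at least 2-fold lower and 17 within 2-fold. Over all 10174 genes of that level, 28.1% were at least 2-fold higher and 34.9% lower. The median log2 ratio was −0.07 for the mitosis genes and −0.15 for all genes, with quartiles of −1.37 and 1.95 against −1.33 and 1.38. There was 1 library per genotype, so no test was made, and the 95% exact binomial intervals given below cover counting error only. They left out a ratio of 1 for 39 of 43 mitosis genes. That share was not worked out over all genes, so it shows nothing particular to the mitosis genes.

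The gene of highest mean CPM in each role group is given first. Ccnb2 (NCBI gene 12442) stood at 90.6 CPM (2346 counts) in the library labelled Mll4 deleted and 100.2 CPM (2666 counts) in the wild type one, a log2 ratio of −0.15 (interval −0.23 to −0.07). Ncapd2 gave 120.5 CPM (3120 counts) in the library labelled Mll4 deleted and 78.0 CPM (2076 counts) in the wild type one, at 0.63 (interval 0.55 to 0.71). Cenpa had 39.8 CPM (1030 counts) in the library labelled Mll4 deleted and 52.3 CPM (1392 counts) in the wild type one, a ratio of −0.40 (interval −0.51 to −0.28). Each of these 3 was within 2-fold between the libraries. Kif20a, a kinesin of cytokinesis, had 26.7 CPM (692 counts) in the library labelled Mll4 deleted and 22.5 CPM (598 counts) in the wild type one, and Tpx2 22.7 CPM (587 counts) in the library labelled Mll4 deleted and 44.0 CPM (1171 counts) in the wild type one, at log2 ratios of 0.25 and −0.96. Others were higher in the library labelled Mll4 deleted. Ube2c stood at 289.8 CPM (7505 counts) in the library labelled Mll4 deleted and 88.9 CPM (2364 counts) in the wild type one, a ratio of 1.71 (interval 1.64 to 1.77). Aurkb gave 208 CPM (5396 counts) in the library labelled Mll4 deleted and 51.4 CPM (1366 counts) in the wild type one, at 2.02 (interval 1.93 to 2.11). Birc5 gave 144 CPM (3722 counts) in the library labelled Mll4 deleted and 29.5 CPM (786 counts) in the wild type one, at 2.28 (interval 2.17 to 2.40). Both encode proteins of the Aurora B complex, and both were more than 4-fold higher in the library labelled Mll4 deleted. Mad2l1 had 69.4 CPM (1798 counts) in the library labelled Mll4 deleted and 19.1 CPM (509 counts) in the wild type one, at 1.86 (interval 1.72 to 2.00).

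The extremes were of the kind where a gene is counted in 1 library and nearly missing from the other. Incenp had 30.7 CPM (796 counts) in the library labelled Mll4 deleted and 0.226 CPM (6 counts) in the wild type one, a log2 ratio of 7.09 (interval 5.96 to 8.54). Cdc25b had 87.4 CPM (2263 counts) in the library labelled Mll4 deleted and 0.714 CPM (19 counts) in the wild type one, at 6.93 (interval 6.29 to 7.67). Kif2c had 17.4 CPM (451 counts) in the library labelled Mll4 deleted and 0.150 CPM (4 counts) in the wild type one, at 6.86 (interval 5.49 to 8.74). On the other side, Ndc80 had 0.348 CPM (9 counts) in the library labelled Mll4 deleted and 44.4 CPM (1181 counts) in the wild type one, at −7.00 (interval −8.13 to −6.07). Its partner Nuf2 had 0.193 CPM (5 counts) in the library labelled Mll4 deleted and 23.5 CPM (625 counts) in the wild type one, at −6.93 (interval −8.55 to −5.70). Aurka gave 0.695 CPM (18 counts) in the library labelled Mll4 deleted and 11.5 CPM (305 counts) in the wild type one, a ratio of −4.04 (interval −4.82 to −3.36). Partners in 1 complex had ratios on both sides: Aurkb and Birc5 were higher, and Cdca8 of the same passenger complex had 315 counts against 2289. Smc2 had 0 counts against 131, at least 42.5-fold lower when set against a floor of 3 counts per library. Kif4 had 5 and 0 counts, and Ect2 had 0 in both, which allows up to 0.116 CPM in the library labelled Mll4 deleted and 0.113 CPM in the wild type one. The Y-linked Ddx3y stood at 14.4 CPM in the library labelled Mll4 deleted and 0.827 CPM in the wild type one. Kit and Ly6a, the genes of c-Kit and Sca1 by which LSK cells are sorted, were both detected. Kit was at 102 CPM with the deleted label against 46.8 CPM in wild type cells, and Ly6a was at 28.2 against 80.2 CPM in that order. Markers of other cells differed between the libraries too. Erythroid markers summed to 15.7 CPM with the deleted label against 207 CPM, with Klf1 at 0 against 92.8 and Car1 at 0.0386 against 107. The list was split, since Gata1 and Hbb-b1 went the other way, at 13.2 against 0.376 CPM and 1.08 against 0 CPM. Cd79b, a B cell gene, was at 35.5 against 0.752 CPM. The stem cell genes Procr and Slamf1 were at 12.8 against 181 CPM and at 0 against 30.04 CPM. Macrophage markers were at 0 for 8 and 10 of 10 genes. The part of such cells in the ratios of mitosis genes was not tested.

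**Figure D5:**
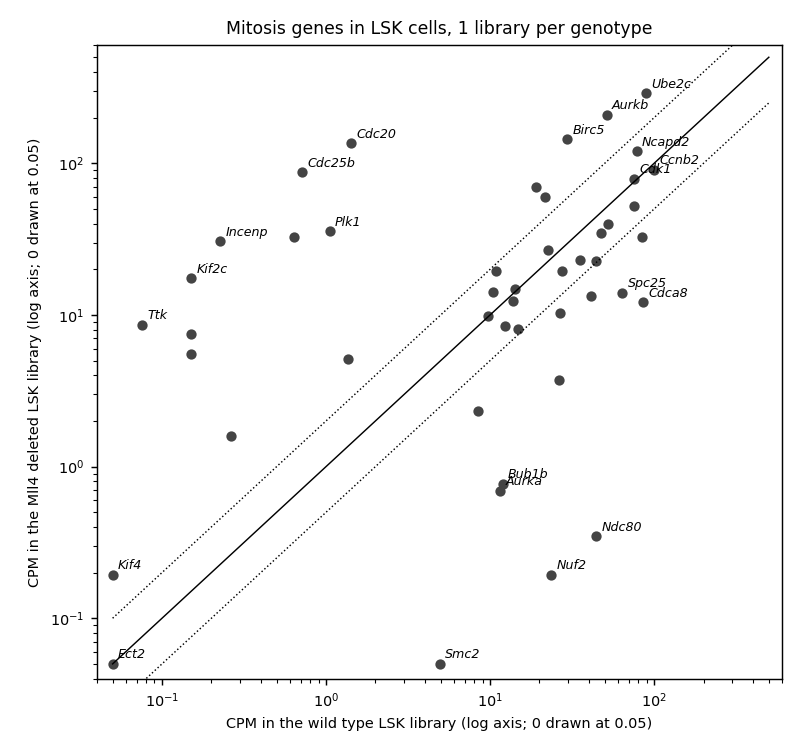
CPM of the 47 mitosis genes in the 2 LSK libraries (log axes, 0 drawn at 0.05), 1 point per gene; the solid line marks equal values and the dotted lines a 2-fold difference. Points lie on both sides of the line, with 15 genes at least 2-fold higher and 12 at least 2-fold lower in the library labelled Mll4 deleted, and several near the axes.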

How the data were processed

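RNA-seq raw read counts per gene (NCBI gene numbers) were deposited by the authors for 9 mouse libraries. Reads were aligned with TopHat2 2.0.11 and Bowtie 0.12.8 to mm9, per the submitters' processing notes; for the counting tool, annotation and strand setting: not given in the sources used here. LSK cDNA was amplified by PCR, per the labels' protocols. Gene numbers were paired with symbols through RefSeq (GRCm38.p6), 23185 of 23282 matching. The members and lists were chosen with earlier results of these data known.

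The 7 MLL-AF9 libraries were fitted together in edgeR 4.0.16 (R 4.3.3; TMM scaling, filterByExpr, quasi-likelihood test, group means, Benjamini-Hochberg, threshold 0.05). All 47 members passed the filter. CPM uses library totals. LSK ratios of CPM carry 95% exact binomial intervals from counts. The fit was also run on simulated counts. They held no near-identical pair of libraries, so that run does not check what the FOXO3 pair does to the fit. Alternatives tried were scaling by RLE, by upper quartile or by total counts, other filters, robust estimation, DESeq2 1.42.0, the compared libraries only, the FOXO3 pair summed, library sex, a replicate block and each library left out. Members could all be named; library values are given for the member of highest mean CPM and of largest and smallest change per group. Pathway genes named are the 3 of smallest p for Mll4 loss per list, plus Foxm1, so that all 4 called factors are named, and any called with FOXO3. The LSK intervals and floors cover counting error only, and intervals of fitted fold changes rest on the spread between libraries. A list of markers is not reported here.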

Additional observations from a re-analysis of the deposited data

Results flagged for a closer look

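Of the mitosis genes, 12 were higher in both Mll4 deleted MLL-AF9 libraries than in both intact ones, yet at least 2-fold lower in the LSK library labelled Mll4 deleted than in the wild type one. These 12 were Ccnb1, Aurka, Bub1b, Kif23, Cenpf, Ndc80, Nuf2, Spc25, Cdca8, Smc2, Smc4 and Mki67. Their log2 ratios in LSK cells ran from −7.00 for Ndc80 to −1.36 for Smc4, with Smc2 at 0 counts in the library labelled Mll4 deleted. In MLL-AF9 cells their log2 fold changes for Mll4 loss ran from 0.40 for Smc4 to 1.30 for Ccnb1. The difference between the cell types was not tested, because each LSK genotype has 1 library. Of the 12, 5 (Kif23, Cenpf, Ndc80, Smc4 and Mki67) did not pass the test in MLL-AF9 cells. In LSK cells 12 of the 44 mitosis genes that reached 1 CPM on average (27.3%) were at least 2-fold lower, against 34.9% of all such genes, so the share is no higher than the background.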

How the results depend on the processing

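For Mll4 loss, the median log2 fold change stayed above 0 in every fit run: it was 1.34 with total counts only, which moves the median of all genes to 0.24, and 0.90 to 1.23 leaving out 1 library at a time, the highest without the first Mll4 deleted library. The number of members called was 38, 0 with only the libraries compared, 14 with the FOXO3 pair summed, and 14 to 44 leaving out 1 library at a time (15 and 21 without the first and second intact library, 14 without either FOXO3 library). Summing the FOXO3 pair together with library sex, added after seeing the data, gave 0 members called, with 41 at an unadjusted p under 0.05. Over all 14990 genes that fit also called 0 for Mll4 loss, with 2684 at an unadjusted p under 0.05. Calls over all genes moved in the other fits too. They were 2237 in the fit reported, 0 with only the libraries compared and 312 with the FOXO3 pair summed. The cause of the lost calls was not tested. Kif23, Cenpf, Ndc80, Smc4, Anln and Hmmr passed with total counts only, and Cenpf, Ndc80, Smc4, Anln and Hmmr with DESeq2. For FOXO3 the members called were 0 in the fit reported, 1 with DESeq2 (Nuf2), 1 with library sex (Cenpf), 35 with only the libraries compared and 0 to 1 leaving out 1 library at a time (Nuf2 without the first intact library). Its median stayed near 0, at 0.0846 with total counts only, 0.0719 with only the libraries compared, 0.0766 with the FOXO3 pair summed, with or without library sex, and 0.0358 to 0.0723 leaving out 1 library. The LSK median changed sign, to 0.0322, with every member that had a count and 0.5 added. With the replicate number of the files as a block, 39 members were called for Mll4 loss. The numbers only name the libraries: same-numbered deviations had a correlation of 0.236 over genes in 2 pairs. The FOXO3 comparison could not be blocked, since its empty-vector library has no number. The LSK totals, 25895041 and 26599883 counts, were not far below the 31713351 counts of the second Mll4 deleted MLL-AF9 library. Each LSK library came from about 50 picked cells with added PCR cycles, and 131 counts against 0 is the most that Smc2 shows.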

Other observations

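The promoter layout common among the mitosis genes also occurred in other genes. Of 272 other tested genes with a CHR and at least 2 CCAAT boxes, 40 (14.7%) were called higher for Mll4 loss and 13 (4.78%) lower, with a median log2 fold change of 0.11. Other here means outside the 47, so the further division and replication genes described above can be among them. Among 5838 tested genes with neither motif, 6.71% were called higher and 7.55% lower, with a median of −0.06. Of the 16 mitosis genes with a CHR and at least 2 CCAAT boxes, 13 were called higher, with a median of 1.05. In the FOXO3 comparison 9 of the 272 (3.31%), 432 of the 5838 (7.4%) and 0 of the 16 were called. Calls by promoter motif were not worked out with the FOXO3 pair summed. Among the 47 mitosis genes, Spearman's rho between the log2 fold change for Mll4 loss and mean log2 CPM was 0.175, over genes that share the same 7 libraries.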
